A study of Mus musculus with 71 samples.

Results

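SLAM-seq follows RNA decay by feeding cells the uridine analogue 4-thiouridine (s4U), which is built into new RNA and later read as T-to-C conversions. The question here was what the label itself did to the transcript levels of the cells. The comparison consisted of 8 libraries of the 71 in the series. Of these, 4 came from DMSO-treated cells that had received 100 µM s4U for 24 h (chase point T0, before the label was washed out), and 4 came from DMSO-treated cells that had received no s4U. All 8 were total RNA of male mouse embryonic stem cells (mESCs), and the 4 libraries of a group carry separate replicate numbers and are described as independent biological replicates. In the labelled cells the medium was exchanged at intervals throughout labelling, and DMSO, the solvent of the Mettl3 inhibitor STM2457, was added 6 h before the end. The labels give no DMSO time for the unlabelled cells, and whether their medium was exchanged in the same way is not given in the sources used here, so s4U and such differences in handling cannot be told apart in this comparison. Reads of 21527 genes were counted at the 3′ ends of transcripts, and all changes below are changes in a transcript's share of the counted reads.

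As background, s4U enters cells through nucleoside transporters, is phosphorylated by uridine kinases such as Uck2, and competes with uridine for incorporation by the RNA polymerases. Thiolated nucleosides given at high dose are known to disturb ribosomal RNA production in the nucleolus and to stabilise p53. The transcription factor p53 is held low in unstressed cells by the ubiquitin ligase Mdm2, which is itself a p53 target, and on nucleolar or DNA stress it activates genes for cell-cycle arrest, repair and apoptosis.

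The T-to-C conversion rates separated the groups as labelled. Over all covered T positions, 1.28, 1.43, 1.40 and 1.37% were read as C in the s4U libraries, against 0.0870, 0.0826, 0.0771 and 0.0790% without s4U. The groups did not overlap (exact permutation test, two-sided, p = 0.0286, the smallest p that 4 against 4 libraries allow, adjusted p = 0.143 over 5 library measures). Counted reads ranged from 5220971 to 7368244 per library without s4U and from 5803916 to 7118182 with s4U. The number of genes detected at 1 CPM (reads of a gene per 1000000 counted reads, here without further scaling) or more was 11148 ± 111 (SD, n = 4) without s4U and 11312.5 ± 38.4 with s4U (exact permutation test, p = 0.0857). The shares of multimapping reads, of reads on the 100 most counted genes and of reads on X-chromosomal genes differed by less than the spread between replicates (exact permutation test, p = 0.514, 0.886 and 0.686). All 7 embryonic stem cell markers found in the files (Pou5f1, Sox2, Nanog and others) were at 1 CPM or more. None of them was called (adjusted p under 0.01 in the edgeR test described below), against 0.13% of all genes tested. Of the fibroblast markers, 1 of 7 reached 1 CPM and Postn was at 0 in all 8 libraries, with summed levels of 12.1 to 21.2 CPM without s4U and 11.5 to 16 CPM with it. Of the primitive endoderm markers, 1 of 5 reached 1 CPM and Sox7 and Pdgfra were at 0, with summed levels of 1.15 to 2.42 CPM without s4U and 2.07 to 5.08 CPM with it.

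A small set of transcripts changed with 24 h of labelling (edgeR quasi-likelihood test, Benjamini-Hochberg adjustment, called at an adjusted p under 0.01). Of 10771 genes tested, 14 were called, which is 0.13%. There were 9 genes higher with s4U (0.0836%) and 5 lower (0.0464%). The higher genes included Zfp365, Zfhx3, Gadd45g, Mcam, Perp, Mdm2, Phlda3 and Trp53inp1, and 4 of them are on the list of p53 targets. The lower genes were T (brachyury), Sprr2a3, Slc16a3, Nefl and Rpl22l1. The median log2 fold change over all genes tested was 0.00, the interquartile range ran from −0.17 to 0.20, and 86.0% lay within 0.5 of 0. At an unadjusted p under 0.05 there were 1124 genes, and 43 (0.399%) passed an adjusted p under 0.05. The levels of single genes given from here on are CPM of the reads on tested genes, scaled by the TMM factors (trimmed mean of M-values, edgeR's correction for composition), so they differ somewhat from reads over counted reads. In RNA from bulk cultures, fewer cells expressing a gene and less of its RNA per cell cannot be told apart, here and in all results below. The number of calls rested on single libraries. It was 6 without unlabelled replicate 2 or without s4U replicate 2, 8 without s4U replicate 4 and 9 without unlabelled replicate 3, while the direction of all 14 genes was the same with any 1 of the 8 libraries left out.

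**Figure D1:**
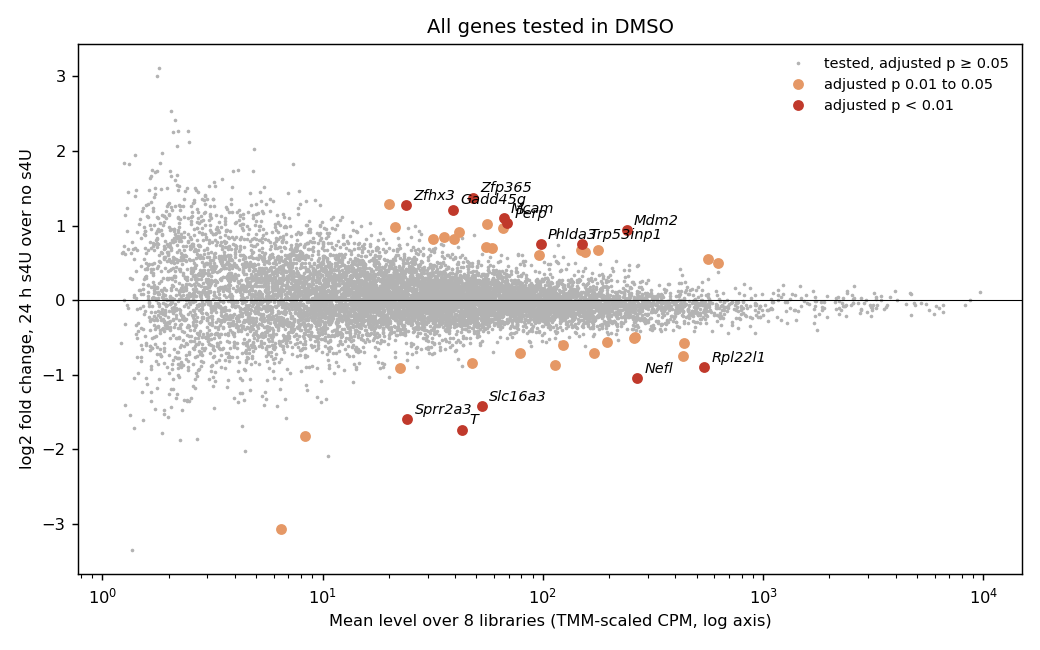
Each point is a gene tested in DMSO, with its mean level over the 8 libraries in CPM (log axis) against its log2 fold change with 24 h of s4U. Dark red points are 13 genes called at an adjusted p under 0.01, 8 above and 5 below 0, and orange points are those between 0.01 and 0.05.

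The p53 targets were the gene group with the highest median. Of 36 listed genes, 33 were tested. Of these, 4 rose (0.0836% of all genes tested did), 29 were not called, and none fell. Their median log2 fold change was 0.51, against 0.00 for all genes tested. All 4 s4U libraries lay above all 4 unlabelled libraries for 14 of the 33, against 3.68% of all genes, and for none did they all lie below, against 3.1% of all genes. The list was chosen with earlier results of these data known, and the numbers describe it without a test of the list. The count of 4 fell to 1 without unlabelled replicate 2, without unlabelled replicate 3 or without s4U replicate 2, and to 2 without unlabelled replicate 1 or without s4U replicate 4.

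Mdm2 (ENSMUSG00000020184.15, chr10:117688875-117710758, minus strand, GRCm38), the ubiquitin ligase that restrains p53, had the highest level of the 4. It was at 152, 202, 147 and 157 CPM without s4U and 297, 315, 328 and 323 CPM with it. The s4U libraries varied little among themselves and all lay above the highest unlabelled library (log2 fold change 0.94, SE 0.12, adjusted p = 0.000770 by edgeR). Perp (ENSMUSG00000019851.8, chr10:18845020-18857073, plus strand), a membrane protein of cell junctions and p53-dependent apoptosis, was at 36.5, 48.1, 44.03 and 53 CPM without s4U and 105, 95.2, 90.9 and 79.2 CPM with it. This was a 2.04-fold rise without overlap of the groups (log2 fold change 1.03, SE 0.15, adjusted p = 0.00176).

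Phlda3 (ENSMUSG00000041801.5, chr1:135766119-135769136, plus strand), a pleckstrin-homology protein that opposes Akt, was at 73.9, 79.96, 68.9 and 69.2 CPM without s4U and 107, 128, 139 and 118 CPM with it. The unlabelled libraries lay close together and all s4U libraries lay higher (log2 fold change 0.75, SE 0.12, adjusted p = 0.00931). Trp53inp1 (ENSMUSG00000028211.11, chr4:11156431-11174379, plus strand), a nuclear protein of the p53 stress response, was at 113, 125, 105 and 105 CPM without s4U and 195, 202, 176 and 181 CPM with it. Its groups did not overlap either (log2 fold change 0.75, SE 0.11, adjusted p = 0.00374).

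The other members pointed mostly the same way but did not pass the threshold. The log2 fold change was above 0 in 30 of the 33 and below 0 in Bax, Ddb2 and Pmaip1. Plk2, a kinase of the stress response, and the small GTPase gene Rap2b lay between 0.01 and 0.05 in adjusted p, at 0.81 (SE 0.17, adjusted p = 0.0493) and 0.71 (SE 0.13, adjusted p = 0.0268). Zmat3, an RNA-binding zinc finger protein, was at 0.49 (SE 0.12, adjusted p = 0.0794), Tnfrsf10b, a death receptor, at 0.60 (SE 0.15, adjusted p = 0.0917) and Ccng1, cyclin G1, at 0.41 (SE 0.14, adjusted p = 0.240). For Aen and Ei24, 99.6 and 66.6% of the reads were multimapping. Bbc3, which encodes the apoptosis inducer Puma, had a difference of 0.97 (SE 0.21, adjusted p = 0.0564), and its groups did not overlap. Cdkn1a, which encodes the cell-cycle inhibitor p21 and is often used as a p53 reporter, was at 250, 215, 244 and 198 CPM without s4U and 249, 343, 373 and 287 CPM with it. Its groups overlapped, with a difference of 0.46 (SE 0.13, adjusted p = 0.161). For Btg2, an antiproliferative gene at only 4.84 CPM without s4U, the difference was the largest of the list but with a wide error, at 1.16 (SE 0.35, adjusted p = 0.187). Bax, a direct effector of apoptosis, was at −0.13 (SE 0.13, adjusted p = 0.804) and Pmaip1, which encodes Noxa, at −0.41 (SE 0.25, adjusted p = 0.617).

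**Figure D2:**
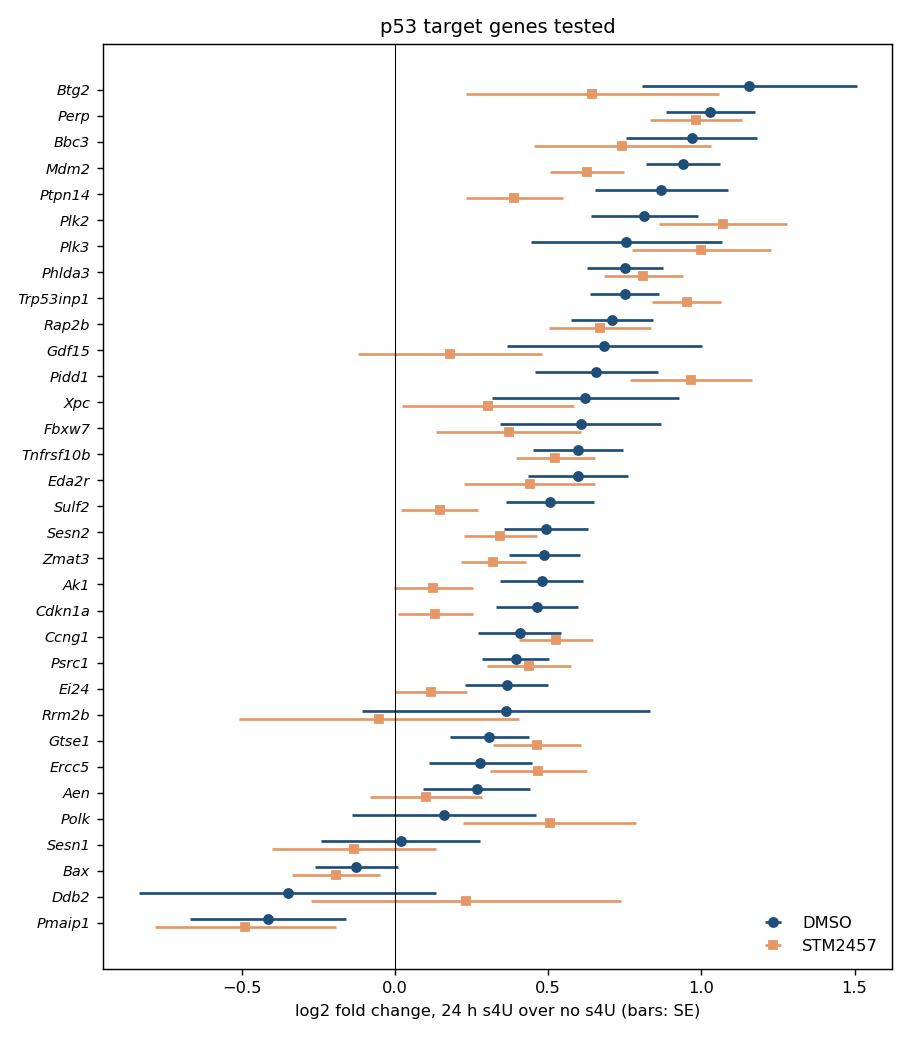
Log2 fold change with 24 h of s4U for the 33 p53 targets tested, in DMSO (blue circles) and in STM2457 (orange squares), with bars for the standard error of the fit over 4 against 4 libraries. In DMSO 30 of the 33 lie above 0, from Sesn1 near 0 up to Btg2, and Bax, Ddb2 and Pmaip1 lie below.

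To show what lies in front of such genes, promoter windows from RefSeq (GRCm38.p6) were searched on both strands for the 10-base p53 half-site consensus, which is its own reverse complement in its degenerate letters. The windows ran from 250 bases before to 50 after each start site. A half-site was found for 10 of the 25 p53 targets that had a window, against 8.02% of the tested genes with a window and 9.55% of all genes with one. Pairs of half-sites at most 13 bases apart were found for 1 of the 25, Cdkn1a, and for 0.074% of all genes with a window. Genes with several start sites have several windows, 40 for the 25 p53 targets and 10892 for the 8503 tested genes. Among the 13 called genes given by name, 10 had a window, and half-sites were found in those of Mdm2 and Sprr2a3. No window was used for Perp, Trp53inp1 and Nefl. The 250 bases upstream of 4 start sites are shown, in lower case with half-site matches in capitals. Mdm2 is a called p53 target with 1 match and Phlda3 a called p53 target without one in this window. Cdkn1a is a target whose groups overlapped. It has 2 matches in the window shown and none in its other window, chr17:29093519-29093818. Sprr2a3 is a called lower gene with 3 matches.
Mdm2 promoter, chr10:117710759-117711008, minus strand: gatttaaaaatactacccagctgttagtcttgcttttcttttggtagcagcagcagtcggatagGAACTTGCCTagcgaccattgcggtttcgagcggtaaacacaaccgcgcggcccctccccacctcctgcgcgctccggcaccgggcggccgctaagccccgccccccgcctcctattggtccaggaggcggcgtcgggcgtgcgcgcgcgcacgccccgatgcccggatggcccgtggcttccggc
Phlda3 promoter, chr1:135765835-135766084, plus strand: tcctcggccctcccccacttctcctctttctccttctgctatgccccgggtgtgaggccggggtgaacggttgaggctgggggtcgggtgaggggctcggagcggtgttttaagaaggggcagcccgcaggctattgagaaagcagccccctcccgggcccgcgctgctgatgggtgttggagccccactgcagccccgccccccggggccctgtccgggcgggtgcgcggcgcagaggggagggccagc
Cdkn1a promoter, chr17:29090729-29090978, plus strand: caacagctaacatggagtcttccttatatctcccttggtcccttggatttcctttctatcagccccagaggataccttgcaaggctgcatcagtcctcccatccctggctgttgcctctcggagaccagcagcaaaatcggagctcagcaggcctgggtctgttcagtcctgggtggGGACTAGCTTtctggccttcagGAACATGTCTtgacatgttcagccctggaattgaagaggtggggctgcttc
Sprr2a3 promoter, chr3:92285054-92285303, plus strand: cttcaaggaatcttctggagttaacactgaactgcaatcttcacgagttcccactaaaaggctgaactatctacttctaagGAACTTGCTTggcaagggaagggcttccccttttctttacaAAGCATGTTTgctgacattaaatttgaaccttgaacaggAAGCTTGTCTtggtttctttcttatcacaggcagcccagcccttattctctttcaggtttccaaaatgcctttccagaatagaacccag
Among the called genes, a match was thus found in front of 1 that rose and 1 that fell.

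Several called genes outside the p53 list rose more than its 4 called members. Zfp365 (ENSMUSG00000037855.15, chr10:67886103-67912662, minus strand), a zinc finger gene whose human counterpart is linked to genome stability, was at 23.7, 29.4, 23.9 and 30.3 CPM without s4U and 66.8, 77.9, 62.2 and 70.6 CPM with it. Its lowest s4U library was above 60 CPM and its highest unlabelled library just above 30 CPM (log2 fold change 1.37, SE 0.15, adjusted p = 0.000262).

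Gadd45g (ENSMUSG00000021453.2, chr13:51846678-51848468, plus strand), of the growth arrest and DNA damage family, was at 21.7, 23.4, 23.1 and 26.8 CPM without s4U and 46.5, 54.3, 61.03 and 57.6 CPM with it. All s4U libraries were well above all unlabelled libraries (log2 fold change 1.21, SE 0.16, adjusted p = 0.000770). Mcam (ENSMUSG00000032135.15, chr9:44134469-44142727, plus strand), a cell adhesion molecule of the immunoglobulin family, was at 51.7, 34.3, 46.3 and 37.04 CPM without s4U and 86.6, 92.3, 89.8 and 94.5 CPM with it. The unlabelled libraries spread more than the s4U libraries, without overlap (log2 fold change 1.10, SE 0.15, adjusted p = 0.00111). Zfhx3 (ENSMUSG00000038872.10, chr8:107942644-108961630, plus strand), a large transcription factor with homeobox and zinc finger domains, was at 10.97, 14.6, 15.7 and 14.8 CPM without s4U and 42.3, 37.2, 23.96 and 32.1 CPM with it. It was the most variable of the higher genes with s4U and was close to the threshold (log2 fold change 1.27, SE 0.21, adjusted p = 0.00931).

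T, also called brachyury (ENSMUSG00000062327.10, chr17:8434423-8442496, plus strand), is a T-box transcription factor of the primitive streak and early mesoderm. It had the lowest adjusted p of all genes. Its level was 61.96, 71.8, 54.5 and 76.7 CPM without s4U and 20.1, 21.1, 14.5 and 23.7 CPM with it, a fall to 0.300 of the unlabelled level (log2 fold change −1.74, SE 0.18, adjusted p = 0.000176). Nefl (ENSMUSG00000022055.7, chr14:68083863-68089095, plus strand), the light neurofilament subunit, was at 283, 374, 332 and 455 CPM without s4U and 204, 169.7, 144 and 180 CPM with it. All s4U libraries lay below the lowest unlabelled library (log2 fold change −1.05, SE 0.15, adjusted p = 0.00171). Slc16a3 (ENSMUSG00000025161.16, chr11:120948480-120960868, plus strand), a lactate exporter, was at 121, 74.6, 65.6 and 47.5 CPM without s4U and 33.5, 23.9, 24.7 and 33.5 CPM with it. Its unlabelled libraries differed among themselves more than those of most called genes, with replicate 1 highest and replicate 4 lowest (log2 fold change −1.43, SE 0.23, adjusted p = 0.00776).

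Rpl22l1 and Sprr2a3 have a limit that the other 12 do not share, since 68.6 and 97.9% of their reads mapped to more than 1 place in the genome, and near-identical copies could have shared these reads. Rpl22l1 (ENSMUSG00000039221.10, chr3:28805436-28807424, plus strand), a paralogue of a ribosomal protein gene, was at 717, 669, 627 and 794 CPM without s4U and 392.2, 361, 382 and 371 CPM with it. It had the highest level of the 14 genes and the groups were far apart (log2 fold change −0.90, SE 0.11, adjusted p = 0.000460). Sprr2a3 (ENSMUSG00000074445.4, chr3:92285417-92291405, plus strand), of the small proline-rich proteins of cornifying epithelia, was at 22.9, 42.2, 32.7 and 48.1 CPM without s4U and 13.2, 10.8, 12.5 and 11.5 CPM with it (log2 fold change −1.60, SE 0.23, adjusted p = 0.00176). Neither met the rule for named genes, which asks for under 50% multimapping reads, and Sprr2a3 could not be tested once multimapping reads were removed.

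**Figure D3:**
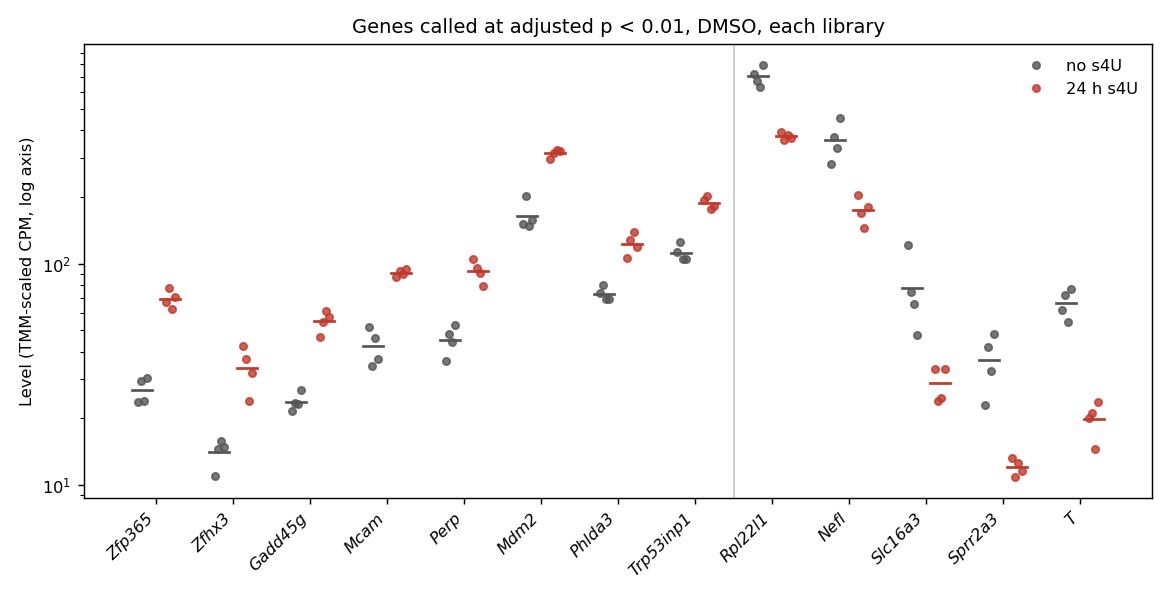
Level in CPM (log axis) of 13 called genes in each of the 4 unlabelled (grey) and 4 s4U (red) DMSO libraries, with horizontal lines at the group means. The 8 genes left of the grey line were higher and the 5 right of it lower with s4U, and the 2 groups do not overlap for any of them.

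A further 29 genes lay between 0.01 and 0.05 in adjusted p and were examined after their values had been seen. Of all 43 genes under 0.05, 25 were higher and 18 lower. Of the higher ones, Ddit4, an inhibitor of mTORC1, was at 115 ± 8.87 without s4U and 183 ± 22.7 CPM with it (mean ± SD, n = 4). Foxo3, a transcription factor of stress resistance, was at 28.5 ± 1.53 without s4U and 50.3 ± 8.60 CPM with it. Jun, a subunit of AP-1, was at 25.3 ± 5.13 without s4U and 45.6 ± 6.01 CPM with it. The log2 fold changes were 0.67, 0.82 and 0.85. Dgka, a diacylglycerol kinase, was at 1.29 (SE 0.27, adjusted p = 0.0441), Sdc4, a cell surface proteoglycan, at 1.02 (SE 0.18, adjusted p = 0.0132), and Serpine2, a secreted protease inhibitor, at 0.97 (SE 0.21, adjusted p = 0.0492). The ETS repressor gene Erf was at 0.67 (SE 0.12, adjusted p = 0.0230) and the Polycomb subunit gene Phc1, at over 500 CPM in both groups, at 0.50 (SE 0.10, adjusted p = 0.0441).

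The rest of the genes between 0.01 and 0.05 belong to no single list. Of the lower ones, Grsf1, an RNA-binding protein of mitochondria, was at −0.75 (SE 0.15, adjusted p = 0.0376) and Mylpf, a myosin light chain of skeletal muscle, at −0.57 (SE 0.12, adjusted p = 0.0442), both at over 300 CPM in both groups. Trh, which encodes thyrotropin-releasing hormone, was at −0.61 (SE 0.12, adjusted p = 0.0283), Psmb10, an immunoproteasome subunit, at −0.71 (SE 0.15, adjusted p = 0.0492), Pglyrp1, which binds peptidoglycan, at −1.83 (SE 0.37, adjusted p = 0.0388) and Ldlrad3 at −0.91 (SE 0.19, adjusted p = 0.0445). For Lcmt2, 96.3% of the reads were multimapping. Of the higher ones, Gng3, a G protein γ subunit, was at 0.61 (SE 0.12, adjusted p = 0.0343), the LIM-domain gene Crip2 at 0.70 (SE 0.14, adjusted p = 0.0301) and the rhotekin gene Rtkn at 0.98 (SE 0.20, adjusted p = 0.0484). The transcript 2410006H16Rik was at 0.56 (SE 0.10, adjusted p = 0.0216).

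Also among these 29 genes, Nodal, a ligand of the TGF-β family, was at 121 ± 15.4 without s4U and 189 ± 28.7 CPM with it (log2 fold change 0.65, SE 0.14, adjusted p = 0.0445), and Eng, a co-receptor of that family, was at 29.04 ± 7.28 without s4U and 54.5 ± 4.77 CPM with it (log2 fold change 0.91, SE 0.18, adjusted p = 0.0343). Lefty2, a secreted inhibitor of Nodal and its target, differed the other way and was at 211 ± 35.01 without s4U and 129.8 ± 8.81 CPM with it (log2 fold change −0.70, SE 0.13, adjusted p = 0.0216). Evx1, a homeobox gene of the posterior primitive streak, was at 7.69, 15.5, 10.2 and 13 CPM without s4U and 0.846, 0, 3.38 and 1.09 CPM with it. It was nearly absent from the s4U libraries, with 0 reads in 1 of them (log2 fold change −3.07, SE 0.59, adjusted p = 0.0291).

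The list of formative, primed and lineage genes had 15 members tested. T fell (0.0464% of all genes tested did) and the others were not called. The median of the list, 0.01, joined members with opposite differences, 8 above 0 and 7 below. All s4U libraries lay above all unlabelled ones in 3 of the 15 and below in 3, against 3.68 and 3.1% of all genes tested. The 6 members given next were named after their values had been seen. Among genes of the primitive streak and early mesoderm or trophectoderm, Cdx2 was at −0.89 (SE 0.20, adjusted p = 0.0695), Lef1, a Wnt effector, at −0.70 (SE 0.19, adjusted p = 0.130), Mixl1 at −1.31 (SE 0.68, adjusted p = 0.523) and Eomes at −0.65 (SE 0.34, adjusted p = 0.525). For Cdx2 and Lef1 all s4U libraries were below all unlabelled ones. The de novo methyltransferase gene Dnmt3a was at 0.57 (SE 0.13, adjusted p = 0.0695) and the POU factor gene Pou3f1, below 10 CPM, at 1.45 (SE 0.40, adjusted p = 0.136), with all s4U libraries above all unlabelled ones. None of these 6 passed the threshold.

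Genes of hypoxia and glycolysis had the lowest list median, at −0.32 over 24 genes tested. Slc16a3 fell, against 0.0464% of all genes tested, none rose, and 23 were not called. The log2 fold change was below 0 in 21 of the 24. All 4 s4U libraries lay below all 4 unlabelled libraries in 5, against 3.1% of all genes tested. Pdk1, the kinase that keeps pyruvate from the mitochondrial pyruvate dehydrogenase, was at 61.2 ± 10.1 without s4U and 34.1 ± 3.75 CPM with it (log2 fold change −0.84, SE 0.16, adjusted p = 0.0268). The glycolytic enzyme genes Tpi1 and Aldoa were at −0.57 (SE 0.12, adjusted p = 0.0492) and −0.44 (SE 0.12, adjusted p = 0.124). Ldha, lactate dehydrogenase, was at −0.38 (SE 0.17, adjusted p = 0.446), and Gapdh, among the most abundant of the list and with 99.9% multimapping reads, was at −0.05 (SE 0.14, adjusted p = 0.945). The glucose transporter gene Slc2a1 was at 0.18 (SE 0.12, adjusted p = 0.664). Pgd, an enzyme of the pentose phosphate pathway that was not on the list, was at 304 ± 11.95 without s4U and 213 ± 15.1 CPM with it (log2 fold change −0.51, SE 0.11, adjusted p = 0.0442).

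Endoplasmic reticulum chaperones and folding factors showed small differences that were mostly below 0. Their median was −0.24 over 22 genes, with 21 below 0. All s4U libraries lay below all unlabelled ones in 4 of the 22, against 3.1% of all genes tested. None was called, against 0.13% of all genes tested. Hspa5, the main chaperone of this compartment, was at −0.26 (SE 0.10, adjusted p = 0.372), Hsp90b1 at −0.35 (SE 0.12, adjusted p = 0.284) and Pdia6, a disulfide isomerase, at −0.33 (SE 0.11, adjusted p = 0.263). Fkbp11, a prolyl isomerase of the secretory pathway outside the list, was at 148 ± 37.5 without s4U and 80.4 ± 13.3 CPM with it (log2 fold change −0.87, SE 0.17, adjusted p = 0.0275). No gene of the 33 tested ATF4 targets was called, and their median was −0.15, with a range from −0.84 to 0.67. All s4U libraries lay above all unlabelled ones in 1 and below in 1, against 3.68 and 3.1% of all genes tested. Atf4 itself was at 0.04 (SE 0.10, adjusted p = 0.928) and Ddit3, which encodes Chop, at 0.55 (SE 0.23, adjusted p = 0.403).

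Genes that handle pyrimidine nucleosides and genes that make ribosomes were listed for what s4U is known for. Of the 50 genes of ribosome biogenesis and RNA polymerase I none was called, against 0.13% of all genes tested. Their median was −0.11, with a range from −0.46 to 0.34. Npm1 and Ncl, abundant nucleolar proteins, were at −0.20 (SE 0.11, adjusted p = 0.559), with 54.01% multimapping reads, and −0.14 (SE 0.09, adjusted p = 0.669), and Polr1a, the large subunit of RNA polymerase I, at 0.15 (SE 0.13, adjusted p = 0.753). Of the 31 genes of pyrimidine synthesis, salvage and transport none was called, with a median of −0.10. The uridine kinase gene Uck2 was at −0.11 (SE 0.11, adjusted p = 0.8002), Cad, which starts pyrimidine synthesis, at 0.15 (SE 0.13, adjusted p = 0.763), and Slc29a1, an equilibrative nucleoside transporter, at −0.51 (SE 0.18, adjusted p = 0.291).

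None of 25 genes of naive and general pluripotency was called, against 0.13% of all genes tested, and their median was 0.09. Pou5f1, the core factor Oct4, was at −0.08 (SE 0.10, adjusted p = 0.826) with 95.9% multimapping reads, Nanog at −0.30 (SE 0.12, adjusted p = 0.398) and Dppa5a, with 99.9% multimapping reads, at −0.17 (SE 0.10, adjusted p = 0.596). Mettl3, the methyltransferase that the study inhibits in its other arm, was at 0.09 (SE 0.17, adjusted p = 0.903). No member was called either among heat shock chaperones (20 tested), NRF2 and thiol redox genes (23), interferon-stimulated genes (6), 2-cell-like genes (2), immediate early genes (17), cholesterol synthesis (24), DNA replication (27), mitosis (27), snoRNA host transcripts (10), m6A factors (17), replication-dependent histones (29) or fibroblast genes (4). The medians of these lists lay between −0.11 and 0.07, except 0.32 for the 4 fibroblast genes. The 7 primitive endoderm genes tested had a median of 0.39, with Sparc, at 104 CPM, at 0.39 (SE 0.13, adjusted p = 0.219) and Gata4 at 1.03 (SE 0.53, adjusted p = 0.520). The part of primitive endoderm cells in this was not tested. Of 82 ribosomal protein genes, Rpl22l1 was called lower (0.0464% of all genes tested were) and the median was −0.05. Of 291 Zfp genes, Zfp365 was called higher (0.0836% of all genes tested were) and the median was 0.05.

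X-chromosomal transcripts, on which the study centres, were looked at as a group. Of 368 X-chromosomal genes tested none was called, against 0.13% of all genes tested, and their median log2 fold change was 0.00. All s4U libraries lay above all unlabelled ones in 19 of the 368 and below in 17. Over all genes tested these shares were 3.68 and 3.1%. The share of the counted reads on X-chromosomal genes was 2.53 ± 0.10% without s4U and 2.56 ± 0.13% with s4U (SD, n = 4).

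**Figure D4:**
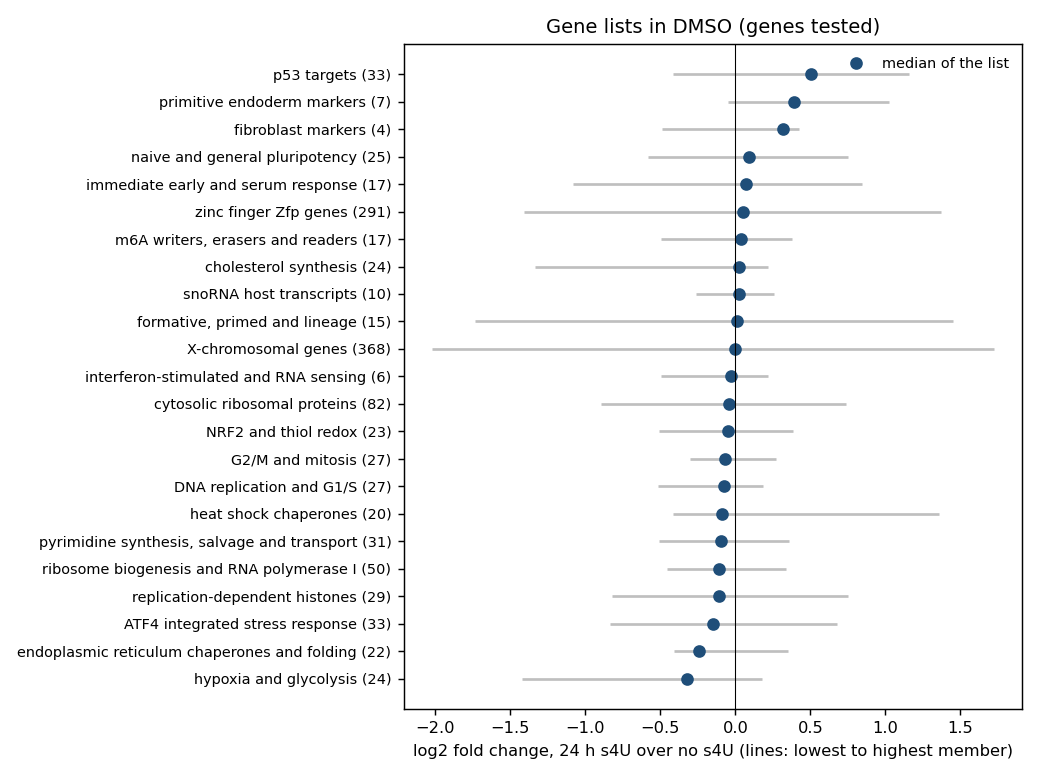
Median log2 fold change with 24 h of s4U in DMSO of each gene list with at least 4 genes tested (points), with grey lines from the lowest to the highest member and the number of genes tested in parentheses. The p53 targets lie highest at 0.51, hypoxia and glycolysis lowest at −0.32, and the X-chromosomal genes at 0.

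The label held by the called transcripts was read from their conversions. The median conversion rate in the s4U libraries was 1.44% for the 9 higher genes, 1.11% for the 5 lower genes and 1.36% for all genes tested. For Mdm2, 1.33 to 1.91% of covered T positions were converted in the 4 s4U libraries, against 0.0339 to 0.0915% without s4U. T had 0.725 to 1.57% with s4U. Perp stood apart with 1.92 to 2.35% conversions already in the unlabelled libraries and 2.78 to 4.04% with s4U.

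The share of label left at chase point T4 (conversion rate over that at T0, background subtracted) was 43.2% in the median of the higher genes, 45.1% for the p53 targets, 68.1% for the lower genes and 59.8% for all genes tested. Among single higher genes it was 19.5% for Gadd45g, 24.6% for Mdm2, 41.1% for Phlda3 and 42.2% for Trp53inp1. It was 58.7% for Mcam and 96.2% for Perp, the gene with conversions already in the unlabelled libraries. Among the lower genes it was 51.8% for Nefl, 64.5% for Slc16a3, 68.1% for Rpl22l1 and 94.3% for Sprr2a3. For T it was above 100%, at 120.0%, with only 15 to 38 conversions per library at T0, so this is not a value of decay. These are descriptions of 9 and 5 genes, with no test.

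The fold change was also set beside the label, the T content and the level of each transcript over all genes tested, as a description. With genes ordered by their conversion rate in the STM2457 T0 libraries, which do not enter the DMSO comparison, 4 bins of equal size had median log2 fold changes of 0.03, −0.01, −0.03 and 0.02 from the lowest to the highest rate. By T content of the counted window the medians were 0.01, 0.00, −0.01 and 0.00. By level, they were 0.11, 0.05, 0.00 and −0.06 from the lowest to the highest bin. The level came from the same libraries as the fold change, and a gene could pass the count filter through either group alone. The order by level is therefore not independent of the fold change, and nothing is concluded from it.

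The same labelling was done in cells treated with STM2457, with 4 s4U and 4 unlabelled libraries of their own. There 55 of 10803 genes were called (0.509%). All 14 genes called in DMSO had the same direction with STM2457, and 13 were called there as well, which is 13 of the 14 in DMSO and 13 of the 55 in STM2457. Zfhx3 was the exception, at 0.58 (adjusted p = 0.289) against 1.27 in DMSO. Mdm2 was at 0.63, T at −1.41 and Nefl at −0.74. In 12 of the 14 the fold change was larger in size in DMSO, where the genes had been called, with medians of 1.15 and 0.93. The exceptions were Phlda3 at 0.81 and Trp53inp1 at 0.95. The 33 p53 targets tested had a median of 0.44 with STM2457, with 6 called higher, and none lower. Over all 10803 genes tested with STM2457 the median was 0.01, with 26 called higher and 29 lower. Of the 43 genes under 0.05 in DMSO, all 43 had the same direction with STM2457 and 28 were called there.

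A direct test of the difference between the effects of s4U in STM2457 and in DMSO called none of 11349 genes (0%, edgeR quasi-likelihood test), with 334 at an unadjusted p under 0.05. For Mdm2 the difference (STM2457 minus DMSO) was −0.31 (SE 0.18), for T 0.33 (SE 0.37) and for Zfhx3 −0.70 (SE 0.32). With 4 libraries per group none of these was called, so differences of this size in these genes were not excluded.

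After labelling, the cells were moved to medium with uridine and DMSO for the chase points T1 to T7. The last point, T7, was compared with the same unlabelled libraries, and 2058 of 10798 genes were called (19.1%). The T7 cells had by then spent longer in culture and in DMSO than the T0 cells. These times are not given for the unlabelled cells. The levels of the called genes took several courses, given as mean ± SD of 4 libraries on a scale set over the DMSO libraries. Mdm2 was at 327 ± 13.4 CPM at T0, 204 ± 20.6 at T4 and 194 ± 25.3 at T6, against 171 ± 26.7 without s4U, and was at 293 ± 15.1 at T7 (log2 fold change over the unlabelled level 0.79, adjusted p = 2.64e-05).

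Phlda3 was at 127 ± 14.02 CPM at T0, 103 ± 5.09 at T2, 126 ± 12.04 at T4, 88.04 ± 3.53 at T5 and 149.5 ± 10.8 at T7, against 75.7 ± 5.70 without s4U. Its lowest chase mean was thus at T5 and its highest at T7. T was at 20.6 ± 4.01 CPM at T0, 37.2 ± 5.56 at T5 and 11.3 ± 3.58 at T7, against 68.7 ± 10.2 without s4U, and stayed below the unlabelled mean at every chase point. Nefl was at 266 ± 44.8 CPM at T5 and 127 ± 29.4 at T7, against 374 ± 74.1. Nodal, higher at T0, was lower than without s4U at T7 (−0.69, adjusted p = 0.000428). Points did not follow a smooth course. Cdkn1a was at 324 ± 57.2 CPM at T0, 178 ± 80.6 at T1, 284 ± 7.10 at T4 and 172 ± 61.8 at T5, and the abundant Ftl1 (91.3% multimapping reads) was at 4268 ± 401, 3331 ± 1051, 4083 ± 309 and 2952 ± 705 CPM. The part of batches in these steps was not tested.

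**Figure D5:**
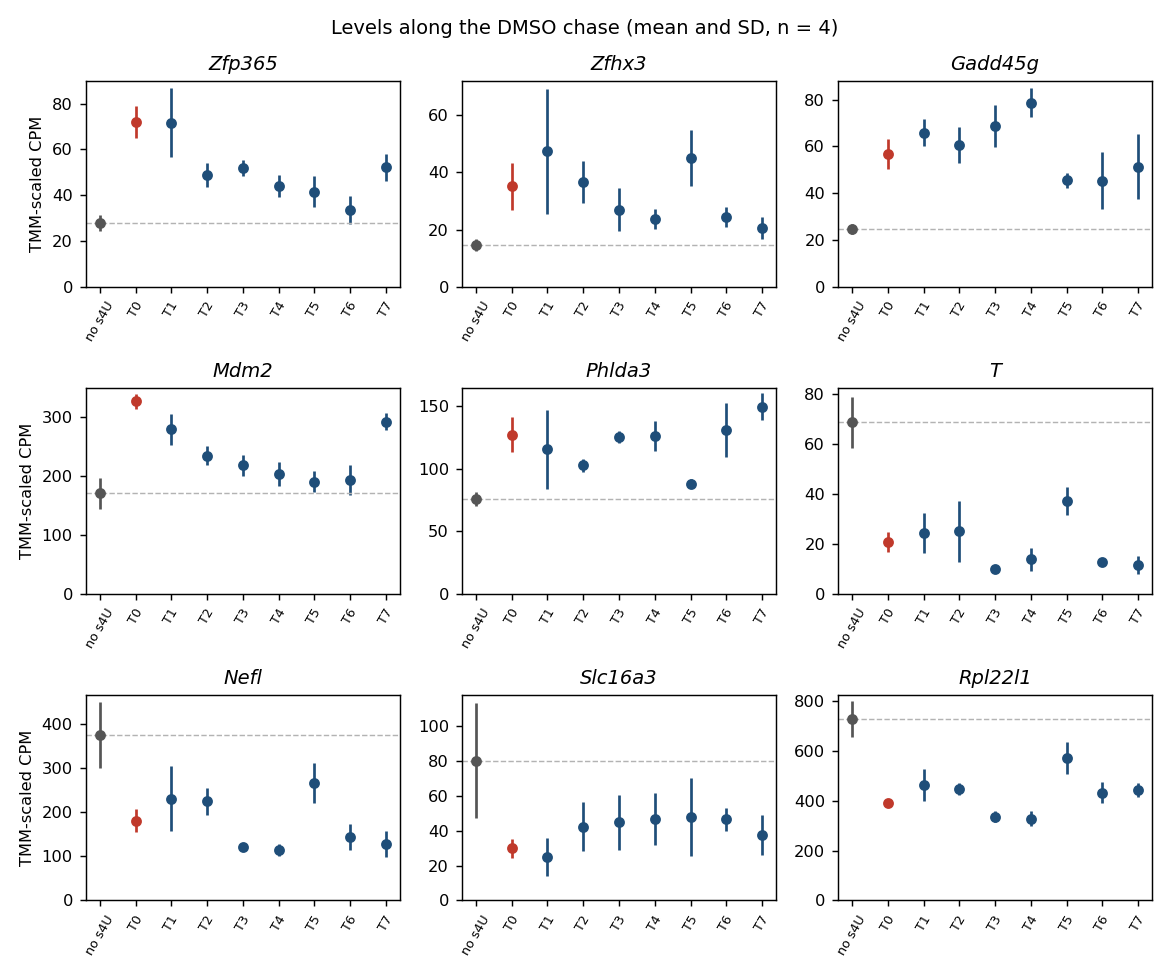
Level in CPM (mean and SD of 4 libraries) of 9 called genes in DMSO cells without s4U (grey, dashed line), after 24 h of s4U (T0, red) and at the chase points T1 to T7 (blue). Zfp365, Zfhx3, Gadd45g, Mdm2 and Phlda3 are above the unlabelled mean at T7, and T, Nefl, Slc16a3 and Rpl22l1 stay below it at every point. The genes had been called against these same unlabelled libraries.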

How the data were processed

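The processed SLAM-seq tables of 8 libraries were analysed, 4 of DMSO-treated mESCs labelled with 100 µM s4U for 24 h and 4 of unlabelled DMSO-treated mESCs. Groups and replicate numbers came from the sample labels. The members and the gene lists were chosen with earlier results of these data known.

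Per the study's methods, QuantSeq 3′ libraries were mapped with SLAM-DUNK to GRCm38.p6 with multimapping reads kept, variants seen in unlabelled libraries were masked, and 3′ UTR windows were collapsed by gene. FastQC 0.11.8 is named in the submitters' processing notes. The authors deposited raw counts per gene of reads, multimapping reads, covered T positions and conversions, with CPM values and the conversion rate as a fraction. The deposited CPM and fraction columns were used only for a check. No molecular identifiers are mentioned, so reads are not independent molecules and errors were taken from replicates.

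Read counts were tested with edgeR 4.0.16 in R 4.3.3 (quasi-likelihood test, TMM, filterByExpr, Benjamini-Hochberg adjustment, adjusted p under 0.01, the study's RNA-seq threshold), after the script had been checked on simulated data. Levels of single genes are CPM of the reads on tested genes scaled by TMM factors, while the number of genes detected and the marker sums use CPM of all counted reads. The standard error is the log2 fold change divided by the square root of the F statistic. Library measures were compared with two-sided exact permutation tests (scipy 1.17.1). Alternatives were DESeq2 1.42.0 (test, or size factors), no count filter, removal of multimapping reads, an adjusted p under 0.05, all 71 libraries, the replicate block and leaving out each library. Gene positions were matched by symbol to GENCODE M21 (21383 genes) or RefSeq (117), and 27 were not placed.

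Named genes were the 10 largest rises and falls among called genes with no overlap between groups, a mean of at least 5 CPM, under 50% multimapping reads and an informative symbol, the called members of each list (up to 2 rises and 2 falls) or its most abundant member, and Mettl3, Pou5f1, Nanog, Cdkn1a, Mdm2, Uck2, Polr1a and Ncl. Other genes were named after their values had been seen. Of the 14 called genes, 1 is counted but not reported here.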

Additional observations from a re-analysis of the deposited data

Results flagged for a closer look

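In 40 groups of 4 libraries (6 library measures and the 14 called genes, each with and without s4U), 1 library lay far from the other 3. This was unlabelled replicate 4 in the share of reads on X-chromosomal genes, at 2.68% against a mean of 2.48% in the other 3 unlabelled libraries, with a gap of 0.899 of the group's range. Chance flags about 1 in 20 such groups. The cause was not tested.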

How the results depend on the processing

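The 14 called genes kept their direction under every alternative in which they were tested, and no result with a call was reversed. All 14 were called without the count filter, by DESeq2 and with all 71 libraries, 12 with DESeq2 size factors and 11 without multimapping reads. The number of calls moved more, and the cause was not tested. It was 43 (25 higher, 18 lower) at an adjusted p under 0.05, 36 (20 and 16) without the count filter, 69 (38 and 31) with DESeq2's Wald test and 65 (38 and 27) with all 71 libraries. Leaving out 1 library gave 6 to 16 calls, with 4 to 11 higher and 2 to 7 lower. The called p53 targets numbered 8 with DESeq2 and 8 with all 71 libraries, and 1 to 4 with 1 library left out.

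Same-numbered libraries of the 2 groups did not deviate together (correlations −0.20, −0.03, 0.06 and −0.16), so the numbers were not taken as pairs. With the replicate block, 2 genes were called, Zfp365 higher (1) and T lower (1), with 0 of the p53 targets, and all 14 kept their direction. Of the unlabelled libraries, only replicate 3 correlated best with the s4U library of its own number. The difference in T-to-C conversion rate, 1.29 percentage points, had an exact sign-flip p = 0.125 with the replicate block, the smallest p that 4 pairs allow, and was 1.26 to 1.32 with an exact permutation p = 0.0571 with 1 library left out, the smallest that 3 against 4 allow. With 1 library left out, the differences (s4U minus no s4U) in multimapping reads ranged from −0.80 to 0.00519 percentage points. They ranged from −0.0374 to 0.0761 for X-chromosomal reads and from −0.57 to 0.27 for the 100 most counted genes. The exact permutation test could not fall under 0.05 for any of these, since 3 against 4 libraries allow no p under 0.0571. The test of the difference between STM2457 and DMSO called 0 genes under all its alternatives.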
